A study of Mus musculus with 12 samples.

Results

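The 9 mast cell genes described here were read in RNA-Seq counts from the colon of 12 mice, out of 38924 genes in the count tables. They were chosen by name, from what is known of mast cells, but with earlier results of these data known. They comprise 2 genes of the mucosal type (Mcpt1 and Mcpt2), 5 genes of the connective tissue type (Mcpt4, Cma1, Cpa3, Tpsb2 and Tpsab1) and 2 genes of the receptor for IgE (Fcer1a and Ms4a2). The RNA came from sections of the proximal colon of female C57BL/6 mice aged 6 weeks. Of these mice, 6 were APC Min/+ and 6 were wild type (WT). The methods of the study do not describe a separation of mucosa from muscle, and the smooth muscle gene Myh11 was counted in all 12 mice. APC Min/+ mice carry 1 copy of Apc with a truncating point mutation in every cell of the body, so counts per gene cannot tell its 2 alleles apart, and no treatment was given to either genotype. According to the methods of the study the genotypes were housed apart, so genotype and cage cannot be told apart. Mice of both genotypes came in each of several shipments, but the labels do not say which mouse came in which, and values within shipments are not given.

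Mast cells are tissue-resident cells of the blood lineage that store proteases in granules and release them when antigen crosslinks IgE bound to its receptor on their surface. In the mouse, mucosal mast cells lie in the epithelium and lamina propria and make the chymases Mcpt1 and Mcpt2. Connective tissue mast cells lie mostly in the submucosa, around vessels and in skin, and make the chymase Mcpt4, the elastase-like protease Cma1 (mouse mast cell protease 5), carboxypeptidase A3 (Cpa3) and the tryptases Tpsb2 and Tpsab1. Cpa3 and Cma1 are also made by immature mast cells, so the split into types is a convention of protease content rather than of cells seen here.

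The chymase genes are neighbours. In the GENCODE M21 annotation of GRCm38, Cma1 lies on chromosome 14 from 55941451 to 55944675 on the reverse strand. Mcpt1 follows from 56017971 to 56020384 on the forward strand, Mcpt2 from 56042041 to 56044642 on the forward strand, and Mcpt4 from 56059629 to 56062313 on the reverse strand. With Cma2 and Mcpt9 they fill 120.9 kb of that chromosome, which holds 7 counted genes. Tpsab1 and Tpsb2 lie close to each other on chromosome 17, Cpa3 on chromosome 3, Fcer1a on chromosome 1 and Ms4a2 on chromosome 19.

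The promoters of 3 of the chymase genes are shown. Mcpt1 and Mcpt4 were highest in the same mice, M2_A and M18_b. Cma1 was highest in M13_1 and M10_2, and M2_A and M18_b came next. Whether the promoters bear on these patterns was not tested. Each line gives the 120 bases upstream of the RefSeq start (GRCm38.p6) in the direction of the gene. Capitals mark the GATA word (AGATAA or TGATAA, searched on both strands), to which GATA factors of the mast cell lineage can bind, and the TATA word (TATAAA, both strands).
Mcpt1 (chr14:56017844-56017963, forward strand): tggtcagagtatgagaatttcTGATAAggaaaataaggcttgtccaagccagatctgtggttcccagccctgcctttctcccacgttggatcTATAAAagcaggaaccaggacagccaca
Mcpt4 (chr14:56062311-56062430, reverse strand): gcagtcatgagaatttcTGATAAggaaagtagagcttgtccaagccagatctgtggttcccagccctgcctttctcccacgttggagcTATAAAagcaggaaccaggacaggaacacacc
Cma1 (chr14:55944676-55944795, reverse strand): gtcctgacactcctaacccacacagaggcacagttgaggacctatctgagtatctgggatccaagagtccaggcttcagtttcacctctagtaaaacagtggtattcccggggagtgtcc
The windows of Mcpt1, of the mucosal type, and Mcpt4, of the connective tissue type, were identical at 104 of 116 overlapping bases (89.7%) when shifted by 4 bases, without gaps. Both held TGATAA, 99 bases before the start in Mcpt1 and 103 in Mcpt4, and TATAAA, 28 bases before the start in Mcpt1 and 32 in Mcpt4. The window of Cma1 held neither word and, at the best of shifts up to 10 bases, matched that of Mcpt1 at 37 of 111 bases (33.3%). Other GATA words, such as AGATAG, were not searched. The Cma1 window holds that word on the opposite strand, as ctatct. Promoters of 300 bases were found for 6 of the 9 mast cell genes. Of these 6, the GATA word was present in 5 and the TATA word in 4, against 18.6% and 13.6% of all 32851 promoters in the table. A match is a description of the letters and not a binding site.

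The tables held between 50313805 and 197914821 counts per mouse, and 3 counts, used as the floor of detection, were worth 0.0152 to 0.0560 CPM (counts per 1e+06 counts, scaled with TMM factors between 0.906 and 1.10). Mast cell genes were rare at this depth. Their counts together made up 9.54e-05% to 0.001695% of the total, so that the values below rest on few reads. Among counts from 1 to 10 over all genes, 77.0% to 83.1% were even in each mouse, as were 80 of the 91 nonzero counts of mast cell genes, so 2 counts may stand for 1 fragment. Apc itself was counted at 164 to 216 CPM in the APC Min/+ mice and 154 to 239 CPM in the WT mice. All 66 pairs of libraries differed by more than counting noise, with a mean chi-square per gene of at least 15.6.

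A few mice stood apart and return throughout the results. The APC Min/+ mice M10_2 and M13_1 went against the label of proximal colon. Hoxb13, a homeobox gene of the tail end of the body, reached 378 CPM in M10_2 and 275 CPM in its group mate M13_1, whereas no other mouse exceeded 0.744 CPM. Summed with Hoxd13, Hoxa13 and Tgm3, such distal colon genes reached 2758 CPM in M10_2 and 2609 CPM in M13_1, against a maximum of 7.62 CPM among the remaining APC Min/+ mice and of 4.66 CPM among WT mice. The WT mouse M18_b and the APC Min/+ mouse M2_A had the most Mcpt1. They are also the mice whose tag ends in a letter alone, where the others carry a 1 or a 2, and the labels do not say what this marks. Fat cell genes (Adipoq, Plin1, Cfd, Lep and Cidec) summed to 500.0 CPM in M2_A, the highest of the 12 mice. They summed to 9.31 CPM in M10_2, the lowest, and to 20.8 CPM in M13_1, the next lowest. M18_b had the highest sum of epithelial genes (11280 CPM) and the lowest sum of enteric neuron and glia genes (31.2 CPM). The part of these differences in the results was not tested, and results that rest on these mice are given with and without them.

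Mcpt1, the leading chymase of mucosal mast cells, was the most abundant of the 9 genes per length (median RPKM) and was detected in all 12 mice. In APC Min/+ mice it ranged from 0.345 CPM in M20_1 to 3.23 CPM in M2_A with a median of 0.833 CPM. In WT mice it ranged from 0.203 CPM in M17_1 to 11.8 CPM in M18_b with a median of 0.627 CPM. The genotypes overlapped, and the WT mouse M18_b alone supplied 967 of the 1270 Mcpt1 counts of its group. The mean was 1.21 ± 1.05 CPM in APC Min/+ and 2.49 ± 4.60 CPM in WT mice (SD, n = 6 each). The log2 fold change of APC Min/+ over WT was -1.04 (standard error 0.94, adjusted p = 0.91 in edgeR's quasi-likelihood test) and did not pass the test. Without M18_b it was 0.93, of the opposite sign, and with the tag ending as a block, a fit chosen after seeing the data, it was -0.05 (standard error 0.65).

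Mcpt2, the sister chymase of the mucosal type, followed the same mice at a lower level. Its level in APC Min/+ mice lay between 0.0766 CPM in M20_1 and 0.851 CPM in M2_A, with a median of 0.379 CPM. WT mice spanned 0 CPM in M17_2 to 3.85 CPM in M18_b, with a median of 0.349 CPM. The 0 in M17_2, the shallowest library, lay under the floor of 3 counts, worth 0.0560 CPM there. As 2 counts may stand for 1 fragment, the level that this 0 allows may be higher. M18_2a held 2 counts, also under the floor. The genotypes overlapped and the fold change did not pass the test (log2 -1.10, standard error 1.01, edgeR adjusted p = 0.91). Without M18_b the log2 fold change was 0.54, and with the tag ending as a block it was 0.25.

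Cma1 showed another pattern. Named a chymase but with elastase-like activity in the mouse, it was highest in the 2 mice with distal colon genes, at 3.34 CPM in M13_1 and 1.49 CPM in M10_2. Among the remaining APC Min/+ mice it was at 0.567 CPM in M2_A, 0.0766 CPM in M20_1 and 0.0718 CPM in M8_2, and M18_2b had 10 counts. WT mice ranged from 0 CPM in M17_2 to 0.441 CPM in M18_b, with a median of 0.203 CPM. Of the 6 APC Min/+ mice, 3 lay within the WT range, M2_A lay above it, and M10_2 and M13_1 lay above every other mouse. The log2 fold change was 2.13 (standard error 0.97) with an unadjusted p of 0.0469 and an adjusted p of 0.908 in edgeR's test, so Cma1 did not pass. Without M10_2 and M13_1 the log2 fold change was -0.09 (standard error 0.78, unadjusted p = 0.908), and without M13_1 alone it was 1.13. M10_2 and M13_1 are both APC Min/+, and the part of the sampled colon segment in the difference of Cma1 was not tested.

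Mcpt4, the chymase of connective tissue mast cells, was not high in M10_2 and M13_1, where it stood at 0.116 CPM and 0.0884 CPM. It was highest in M2_A at 0.841 CPM and in M18_b at 0.539 CPM, and it had no count in M17_2. Medians were 0.122 CPM in APC Min/+ mice (lowest 0.0718 CPM) and 0.199 CPM in WT mice. The ranges overlapped, and the log2 fold change of Mcpt4 was 0.22 (standard error 0.75, edgeR adjusted p = 0.962). Without M2_A it was -0.70.

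Cpa3, the granule carboxypeptidase, was detected in all 12 mice. In APC Min/+ mice it ranged from 0.199 CPM in M13_1 to 1.28 CPM in M2_A with a median of 0.284 CPM, and in WT mice from 0.224 CPM in M17_2 to 1.03 CPM in M18_b with a median of 0.386 CPM. Group means were 0.479 ± 0.419 CPM and 0.494 ± 0.318 CPM (SD, n = 6 each). The log2 fold change was -0.06 (standard error 0.52, edgeR adjusted p = 0.986), smaller than its error.

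Tpsb2, the main mouse mast cell tryptase (protease 6), was also detected in every mouse. It lay between 0.0884 CPM in M13_1 and 0.841 CPM in M2_A among APC Min/+ mice and between 0.262 CPM in M17_2 and 0.626 CPM in M16_1 among WT mice. The medians of 0.389 CPM and 0.390 CPM were close to each other, and the log2 fold change was -0.06 (standard error 0.44, edgeR adjusted p = 0.985). M10_2 and M13_1 were the lowest of the 12 mice for Tpsb2 while being the highest for Cma1. Without them the log2 fold change of Tpsb2 was 0.35 (standard error 0.33) and did not pass.

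Tpsab1, the second tryptase (protease 7), which C57BL/6 mice are known to make little of because of a splice site mutation, was under the floor in 10 of 12 mice. It had 8 counts in M2_A, 4 counts in M18_b, 2 counts in M18_2b and none in the other 9 mice. No fold change is given at these counts. The same 2 mice, M2_A and M18_b, led here as for Mcpt1.

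The IgE receptor genes were the least abundant beside Tpsab1. Fcer1a, the IgE-binding alpha chain, had at most 8 counts in APC Min/+ mice and 18 counts, or 0.221 CPM, in the WT mouse M18_b. It reached the floor of 3 counts in 4 of 6 APC Min/+ and 2 of 6 WT mice. Ms4a2, the beta chain that amplifies the signal, had at most 5 counts in APC Min/+ mice and 10 counts, or 0.123 CPM, in M18_b. M18_b was thus the highest of the 12 mice for both chains, as it was for Mcpt1 and Mcpt2. Neither gene had enough counts for the main test. In a fit without the filter on low counts the log2 fold changes were -0.57 for Fcer1a (standard error 0.94, edgeR adjusted p = 0.888) and -0.95 for Ms4a2 (standard error 0.74, edgeR adjusted p = 0.743). Without M18_b the change of Fcer1a was 0.90.

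**Figure D1:**
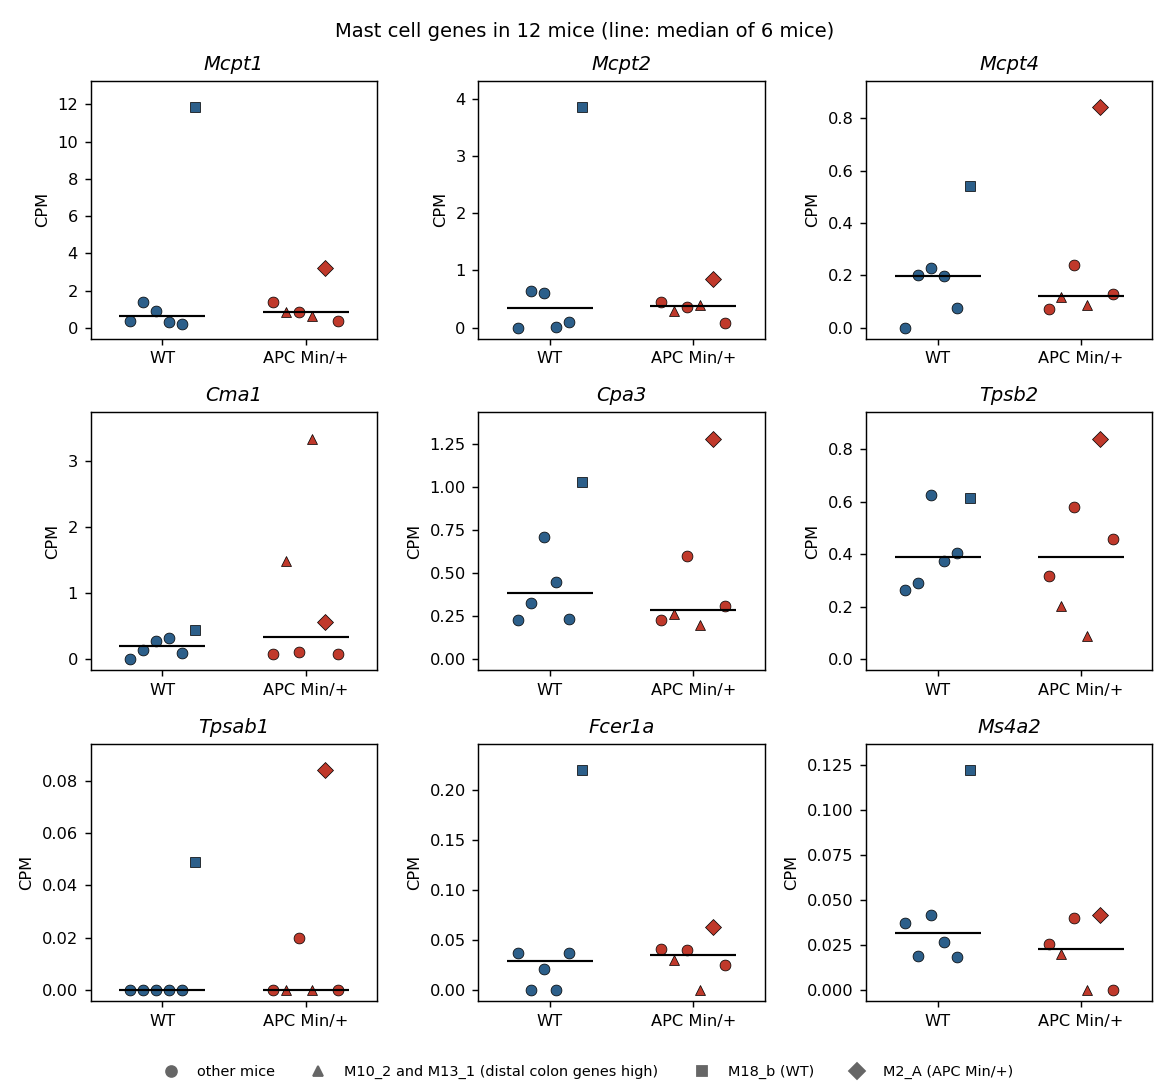
CPM (y axis, linear, its own scale for each gene) of the 9 mast cell genes in 6 WT (blue) and 6 APC Min/+ (red) mice, with 1 point per mouse and a line at the median. M18_b (square) and M2_A (diamond) lead most panels, whereas in the Cma1 panel M10_2 and M13_1 (triangles) lie highest, at 1.49 and 3.34 CPM, and the genotypes overlap in every panel.

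For the 9 genes as a group, no difference between genotypes passed the test. Of the 6 genes with enough counts to be tested (at least 10 counts in at least 3 mice), none was called at an FDR under 0.05 with a fold change of at least 2, where 0% of the 20311 genes tested were called. At an unadjusted p under 0.05 there was 1 of 6, Cma1, where 5.27% of all genes tested lay under that value. CPM ranges without overlap between genotypes were found for none of the 6, against 0.118% of all genes tested. The lowest adjusted p over all genes was 0.908. DESeq2 called 27 genes, edgeR's likelihood ratio test 15 and its exact test 10, and none of these was a mast cell gene, though DESeq2 gave no p-value for Mcpt1. In bulk tissue, fewer cells of a type and less RNA per cell cannot be told apart.

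The standard errors of the fold changes ran from 0.44 for Tpsb2 to 1.01 for Mcpt2 on the log2 scale, so the interval of 1 standard error around each fold change included 0 for Mcpt4, Cpa3, Tpsb2 and Fcer1a. It did not include 0 for Mcpt1, Mcpt2 and Ms4a2, lower in APC Min/+ mice, or for Cma1, and none of these passed the test. The signs of Mcpt1, Mcpt2 and Fcer1a turned when M18_b was left out, and that of Cma1 turned when M10_2 and M13_1 were left out.

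**Figure D2:**
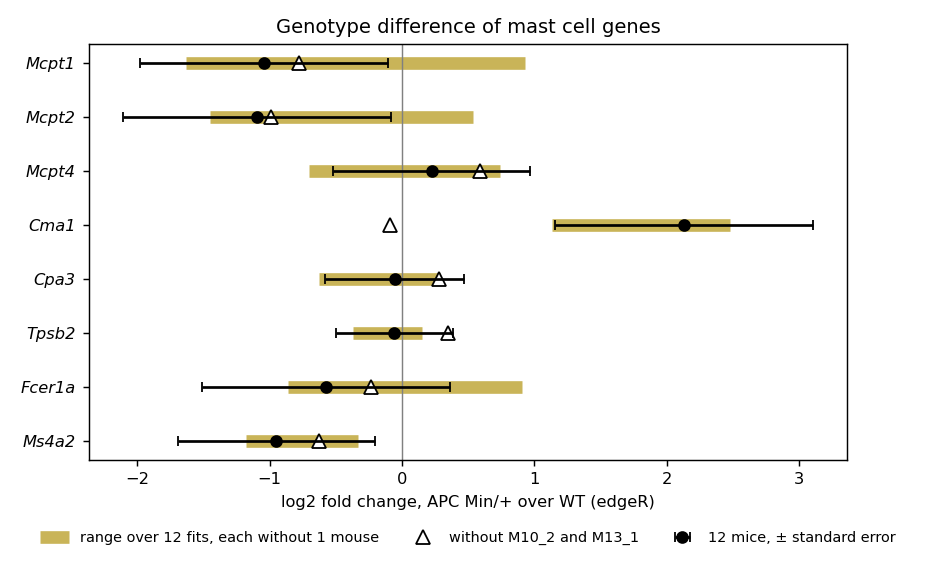
Log2 fold change of APC Min/+ over WT (x axis) for 8 mast cell genes, with the edgeR standard error (bar), the range over 12 fits that each left out 1 mouse (yellow band) and the fit without M10_2 and M13_1 (triangle). Cma1 moves from 2.13 to -0.09 without those 2 mice, and the bands of Mcpt1, Mcpt2, Mcpt4, Cpa3, Tpsb2 and Fcer1a cross 0.

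To compare genes with each other, levels were taken per length, as RPKM (reads per kilobase of gene and 1e+06 reads). The median RPKM over 12 mice was 0.810 for Mcpt1, 0.391 for Mcpt2, 0.361 for Tpsb2, 0.218 for Cpa3, 0.189 for Cma1 and 0.163 for Mcpt4. Fcer1a at 0.0327, Ms4a2 at 0.0198 and Tpsab1 at 0 closed the order. Mcpt1 was above Mcpt2 in 12 of 12 mice, by 1.19 on the log2(RPKM + 0.1) scale with an SD between mice of 0.53. Mcpt4 was above Fcer1a by 1.02 (SD 0.77) and Ms4a2 above Tpsab1 by 0.22 (SD 0.20). The medians of Fcer1a, Ms4a2 and Tpsab1 lay under the added 0.1, so the sizes of these 2 differences depend on it. The other neighbours, from Mcpt2 down to Mcpt4 and from Fcer1a to Ms4a2, differed by less than the spread between mice.

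The balance of the types was read as the share of the summed RPKM of the 7 proteases that came from Mcpt1 and Mcpt2. This mucosal share was 45.5 ± 18.7% in APC Min/+ and 50.5 ± 24.9% in WT mice (SD, n = 6 each). The difference of 5.05 percentage points, lower in APC Min/+ mice, was smaller than the SD between mice of 22.0 points. In single mice the share ran from 22.9% in M13_1 to 75.4% in M8_2 among APC Min/+ mice, and from 20.9% in M18_2a to 87.3% in M18_b among WT mice. Without M10_2 and M13_1 the share in APC Min/+ mice was 53.2 ± 17.6% (SD, n = 4) and the difference turned to 2.70 points higher than in WT mice. With the connective tissue type read from Mcpt4 and Cma1 alone, the shares were 63.2 ± 25.3% in APC Min/+ and 76.4 ± 22.7% in WT mice (SD, n = 6 each).

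Cma1 set the share in 2 of the mice. It made up 46.6% of the summed protease RPKM in M10_2 and 70.2% in M13_1, and between 0 and 20.5% in the other 10 mice. With Cma1 left out of the sum, an alternative chosen after seeing the data, the mucosal share was 69.4% in M10_2 and 76.7% in M13_1. The shares of the groups were then 61.6 ± 16.6% in APC Min/+ and 53.5 ± 24.3% in WT mice (SD, n = 6 each), so the order of the genotypes turned while the difference stayed smaller than the SD.

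**Figure D3:**
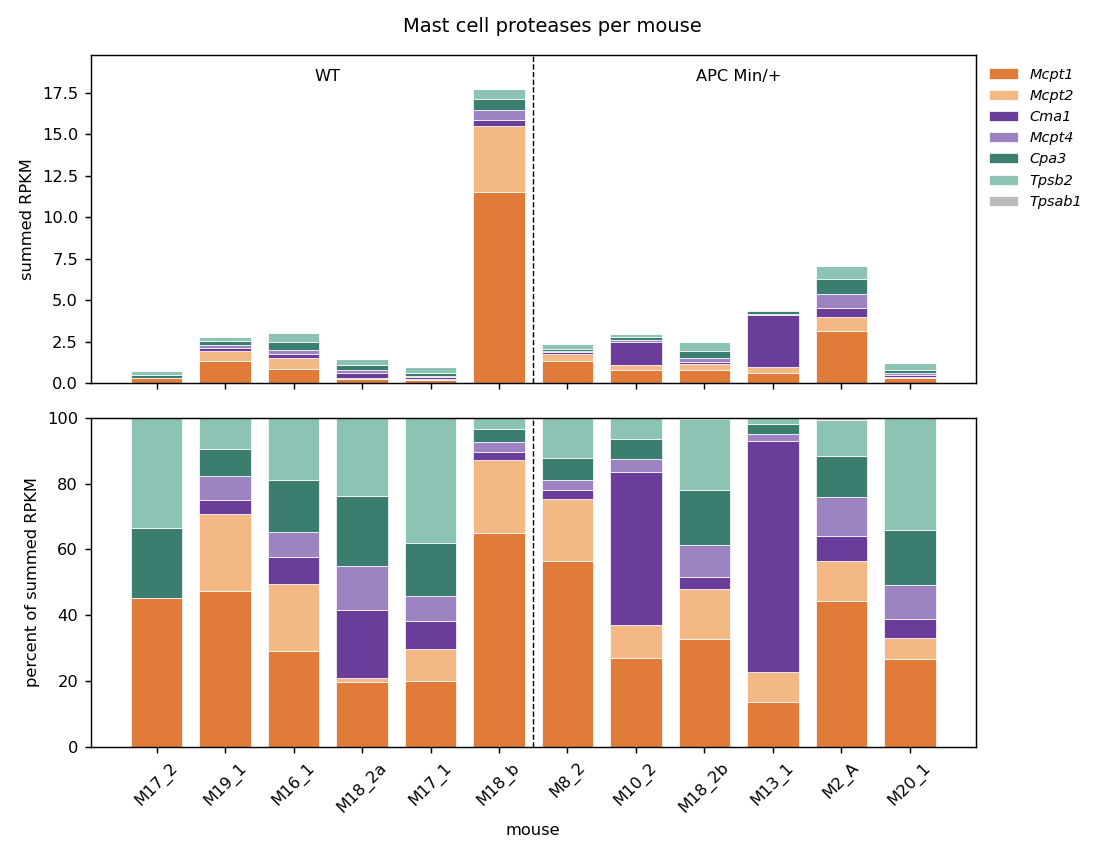
Summed RPKM of the 7 mast cell proteases in each of 6 WT and 6 APC Min/+ mice (top, linear axis) and each protease as a percent of that sum (bottom). M18_b has the tallest bar, most of it Mcpt1 (orange), and Cma1 (dark purple) fills 46.6% of the bar of M10_2 and 70.2% of that of M13_1.

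Levels of 2 gene pairs of the same type varied together over all 12 mice. Over 6 pairs examined on log2(CPM + 0.5), Mcpt1 and Mcpt2 had a Pearson r of 0.967 over 12 mice (permutation p = 2e-05, adjusted p = 0.00012) and a Spearman rho of 0.909 (permutation p = 0.00023, adjusted p = 0.00138). Without M2_A and M18_b, the mice farthest from the median, r was 0.894. It was 0.930 within the APC Min/+ mice and 0.984 within the WT mice. Cpa3 and Tpsb2, of separate chromosomes, had an r of 0.862 (permutation p = 0.00014, adjusted p = 0.00042) and a rho of 0.853 (permutation p = 0.00095, adjusted p = 0.00285). Without M2_A and M18_b, r for this pair was 0.789, and within genotypes it was 0.879 and 0.868. All of these genes share their libraries, and the pairs were chosen with earlier results of these data known.

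Cma1 went with Mcpt4 in 10 of the mice and apart from it in the other 2. M10_2 and M13_1 formed a cluster of their own for Cma1. Over all 12 mice the r of Mcpt4 and Cma1 was 0.09 (permutation p = 0.781, adjusted p = 0.938) and rho was 0.47. For Mcpt1 and Cma1, r was 0.11 (permutation p = 0.725, adjusted p = 0.938) and rho was 0.26. For Cma1 and Myh11, r was -0.32 (permutation p = 0.316, adjusted p = 0.631) and rho was -0.34. Values over 10 mice leave out the mice that stood apart for Cma1 itself, so they are a description. In the other 10 mice the r of Mcpt4 and Cma1 was 0.914 (permutation p = 0.00013, adjusted p = 0.00039) and rho was 0.879 (permutation p = 0.00151, adjusted p = 0.00489). Leaving out M2_A and M18_b as well, r was 0.732 over 8 mice. The r of Mcpt1 and Cma1 in the 10 mice was 0.663 (permutation p = 0.0312, adjusted p = 0.0469), rho was 0.455 (permutation p = 0.192, adjusted p = 0.288), and r was 0.05 without M2_A and M18_b, so that relation rests on these mice. Myh11, the myosin of smooth muscle, was set beside them as 1 of 6 smooth muscle genes. The other 5 were not, and all of them had a log2 fold change above 0. Myh11 was at -0.02 and need not stand for all the muscle in the sample. Its r with Mcpt1 was 0.007 over 12 mice (permutation p = 0.983, adjusted p = 0.983; rho -0.007, permutation p = 0.991, adjusted p = 0.991), and with Cma1 it was 0.015 in the 10 mice (permutation p = 0.968, adjusted p = 0.968; rho -0.13, permutation p = 0.729, adjusted p = 0.813).

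**Figure D4:**
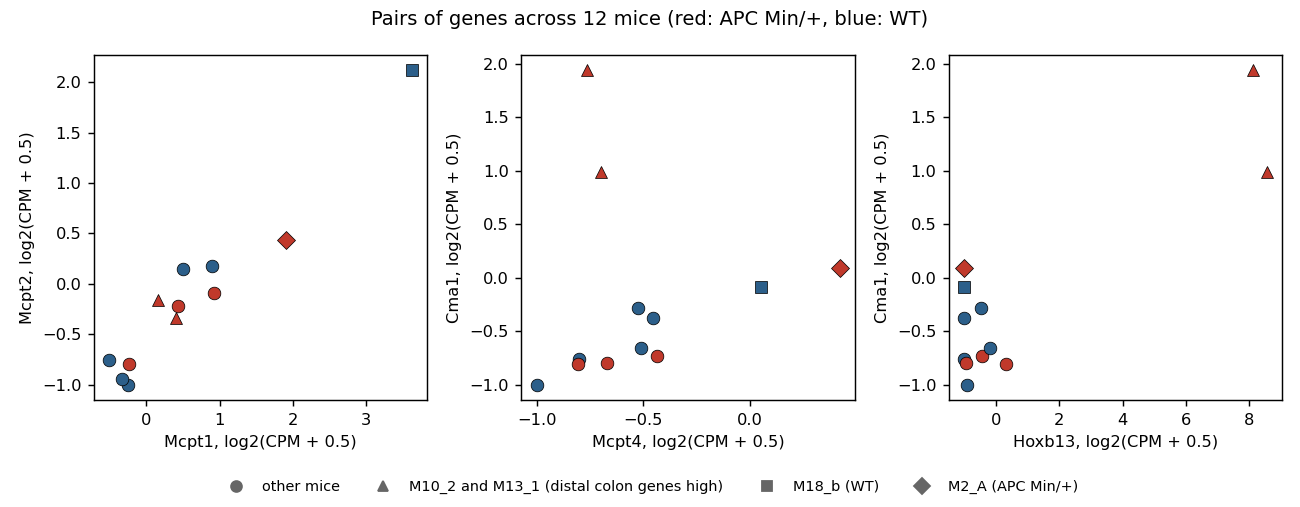
Levels of gene pairs as log2(CPM + 0.5) on both axes, with 1 point for each of 12 mice (red APC Min/+, blue WT). Mcpt1 and Mcpt2 lie along 1 line (left), whereas M10_2 and M13_1 (triangles) leave the line of Mcpt4 and Cma1 (middle) and are the mice with Hoxb13 at 275 and 378 CPM (right).

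The genes whose pattern over the 12 mice was most like that of Mcpt1, among 14897 genes with a mean of at least 1 CPM, included Apobec1 (r = 0.860), Gm5637 (r = 0.860), Snrpc (r = 0.825) and Dhrs4 (r = 0.815). All 4 were highest in M18_b. The genes most like Cma1 were Sfxn1 (r = 0.978), Cmas (r = 0.956), Ttpa (r = 0.950), Has2os (r = 0.949) and Ppa1 (r = 0.943). All 5 were highest in M13_1 and second highest in M10_2. Ttpa, the transfer protein for vitamin E, was at 5.91 CPM in M13_1 and 5.37 CPM in M10_2 and at most 1.45 CPM elsewhere. These values of r are the highest of many and are given without a test. As the genes were chosen by r, sharing the highest mice with Mcpt1 or Cma1 is part of that choice. The values of r with Cma1 include M10_2 and M13_1, which stood apart for Cma1.

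Other genes of mast cell biology were read from lists, given by counts. Of 14 other proteases of the mast cell, basophil and granzyme loci, 13 were found, 5 of these without a count, and 5 were tested, none with an unadjusted p under 0.05. Tpsg1, the membrane-anchored tryptase next to Tpsb2 on chromosome 17, was at 10.21 RPKM or more in every mouse, whereas Tpsb2 did not exceed 0.778 RPKM in any. Gzmb, the granzyme of cytotoxic lymphocytes, was at 0.519 ± 0.378 CPM in APC Min/+ and 0.967 ± 0.409 CPM in WT mice (SD, n = 6 each; log2 fold change -0.91, standard error 0.51, edgeR adjusted p = 0.908). The median log2 fold change of the 5 tested was -0.43, against -0.01 over all genes tested.

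Of 12 genes that carry the signal of the IgE receptor, all were tested and none had an unadjusted p under 0.05. Their median log2 fold change was 0.03, with 7 above and 5 below 0. Syk, the kinase that docks on the receptor, was at 61.0 ± 19.6 CPM in APC Min/+ and 49.7 ± 10.9 CPM in WT mice (SD, n = 6 each), and Plcg1, the phospholipase that it activates, was at 37.9 ± 6.07 and 39.9 ± 5.60 CPM. Many other cells of the colon also use these genes.

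Of 17 genes of mast cell growth and lineage, 16 were tested and none had an unadjusted p under 0.05 (median log2 fold change 0.05). Kit, the receptor that mast cells need to survive, was at 80.0 ± 20.8 CPM in APC Min/+ and 98.8 ± 26.7 CPM in WT mice (SD, n = 6 each). Its ligand Kitl was at 116 to 206 CPM over the 12 mice. Kit also marks the pacemaker cells of gut muscle. Of 16 genes of mast cell mediators and receptors, 13 were tested and none had an unadjusted p under 0.05 (median log2 fold change -0.08). Ptgs1, a prostaglandin synthase, was at 32.3 ± 3.30 and 37.3 ± 7.36 CPM in APC Min/+ and WT mice (SD, n = 6 each). Tph1, which makes serotonin and is shared with enteroendocrine cells, had means of 24.8 and 40.3 CPM within a range of 9.70 to 54.5 CPM over the 12 mice (log2 fold change -0.70, standard error 0.33, edgeR adjusted p = 0.908).

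Markers of other cells were read beside these values. The defining basophil proteases Mcpt8 and Prss34 were near 0, with 21 and 6 counts over all 12 mice, while all 5 basophil genes, led by Il6ra, summed to 5.38 to 13.2 CPM in APC Min/+ and 3.27 to 9.94 CPM in WT mice. Summed CPM of 5 genes of white blood cells was 53.8 to 98.8 in APC Min/+ and 60.3 to 108 in WT mice, that of 6 eosinophil genes 1.07 to 7.31 and 3.55 to 10.19, and that of 6 epithelial genes 6587 to 9570 and 5584 to 11280. Enteric neuron and glia genes summed to 47.8 to 69.1 CPM and 31.2 to 67.1 CPM, fat cell genes to 9.31 to 500.0 CPM and 45.5 to 275 CPM, and fibroblast genes to 1881 to 2834 CPM and 1101 to 2189 CPM in the same order. Smooth muscle genes summed to 4391 to 6959 CPM in APC Min/+ and 4636 to 5841 CPM in WT mice, and 3 of 6 (Actg2, Des and Cnn1) had an unadjusted p under 0.05, all higher in APC Min/+ mice. The same held for 1 of 6 fibroblast genes, Col3a1, and for 4 of 4 distal colon genes, and none of these passed an FDR of 0.05. Over all genes tested, 5.27% lay under that unadjusted p. The summed distal colon genes were high in M10_2 and M13_1 alone (2758 and 2609 CPM, at most 7.62 CPM in any other mouse). The part of tissue makeup in the levels of the mast cell genes was not tested.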

How the data were processed

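RNA-Seq of the colon of 12 mice was analysed from the count tables that the authors deposited, with 1 table per mouse. Per the labels and the study's methods, the authors sequenced paired ends of 100 bases, aligned them with STAR 2.3.0 to GRCm38.p2 and counted reads per gene with featureCounts. The counts are unnormalized, and the deposited gene lengths are in bases. The featureCounts version, strand setting and treatment of multimapping reads are not given in the sources used here. Symbols and positions came from GENCODE M21 (37607 of 38924 genes), and promoters from RefSeq GRCm38.p6.

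Mice were grouped by the genotype in the labels. Libraries were scaled by TMM, genes that reached 10 counts in 3 or more mice were tested with edgeR 4.0.16 (quasi-likelihood, R 4.3.3) and p-values were adjusted with Benjamini-Hochberg over 20311 genes. Genes under the filter were read from the fit without it. The standard error is the absolute fold change divided by the root of F. RPKM used the deposited lengths. Correlations used log2(CPM + 0.5) and 100000 two-sided permutations. No 100-base stretch of a member's transcripts was shared with another gene, except 0.0991% for Mcpt4 (with Cma2) and 0.406% for Ms4a2 (with Ms4a4b). The fit was tested on simulated data. The floor of 3 counts covers counting error only. Alternatives were DESeq2 1.42.0, edgeR's other tests, an exact permutation test, other scalings, filters and pseudocounts, fits without single mice or pairs of mice, and, chosen after seeing the data, a fit with the ending of the mouse tag (1, 2 or a letter alone) as a block.

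The mast cell genes and all lists were chosen with earlier results of these data known. The text names the 9 mast cell genes, from each list the tested genes with an unadjusted p under 0.05 or else the 2 of highest mean CPM, and the 5 genes most like Mcpt1 and Cma1, of which 1 is not reported here. Gzmb and Tpsg1 are the other proteases of highest mean CPM. Cma2, Mcpt9, Mcpt8, Prss34, Mrgprb2, Mrgprb1 and Hdc were chosen after their values were seen. Marker lists were those of basophils, eosinophils, white blood cells, smooth muscle, fibroblasts, fat cells, enteric neurons and glia, epithelium and distal colon.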

Additional observations from a re-analysis of the deposited data

Results flagged for a closer look

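A mouse far from the other 5 of its genotype was found for 9 of the values looked at in 20 groups of 6 mice. The rule divided the gap between the highest or lowest mouse and the next mouse by the range of the group. Chance gives about 1 in 20 under this rule only where values are normally distributed. Most of the values are CPM from few counts, some of them 0, so the 9 cannot be set against that rate. The WT mouse M18_b was the far one for Mcpt1 (11.8 CPM), Mcpt2 (3.85 CPM), Fcer1a (0.221 CPM), Ms4a2 (0.123 CPM) and Tpsab1 (0.0490 CPM). The APC Min/+ mouse M2_A was the far one for Mcpt1 (3.23 CPM), Cpa3 (1.28 CPM), Mcpt4 (0.841 CPM) and Tpsab1 (0.0841 CPM). In each case the mouse was the highest of its group. The Tpsab1 values rest on 4 and 8 counts. The other 5 WT mice had no Tpsab1 count, so any count in M18_b would have met the rule. The groups share the same 12 libraries, so these values are not independent of each other.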

How the results depend on the processing

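No mast cell gene was called under the alternatives that tested any. With a filter of at least 1 CPM in at least 6 mice none of the 9 was tested, and DESeq2 gave no p-value for Mcpt1. The number of genes called over the whole table was 0 in the main test, 27 with DESeq2, 15 with edgeR's likelihood ratio test and 10 with its exact test, and 0 with other scalings and filters, with the exact permutation test and without any 1 mouse. The cause was not tested. No paired analysis was possible because the labels give no replicate number, litter or shipment shared between genotypes. The tags end in 1, 2 or a letter alone, each found in both genotypes. With this ending as a block, chosen after seeing the data, 0 genes were called, the sign of Mcpt2 turned (0.25) and the log2 fold change was -0.05 for Mcpt1, 0.02 for Mcpt4 and 2.18 for Cma1.

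Leaving out M18_b and M2_A, a choice made after seeing the data, turned the sign of the log2 fold changes of Mcpt1 (0.37), Mcpt2 (0.21), Fcer1a (0.68) and Mcpt4 (-0.17). Leaving out M10_2 and M13_1 turned that of Cma1 (-0.092), Cpa3 (0.28) and Tpsb2 (0.35), and scaling by total counts turned that of Cpa3 (0.0099). Over fits without 1 mouse each, log2 fold changes ran from -1.63 to 0.93 for Mcpt1, -1.45 to 0.54 for Mcpt2, -0.70 to 0.74 for Mcpt4, 1.13 to 2.48 for Cma1, -0.63 to 0.29 for Cpa3, -0.37 to 0.15 for Tpsb2, -0.86 to 0.90 for Fcer1a and -1.18 to -0.33 for Ms4a2. The difference in mucosal share ran from -11.0 to 2.31 percentage points without 1 mouse each, and was -13.2 with Mcpt4 and Cma1 alone as the connective tissue type, 2.70 without M10_2 and M13_1, 0.08 without M18_b and M2_A and 8.06 without Cma1, all within the SD between mice.

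Correlations of Mcpt1 with Mcpt2 (0.900 to 0.976 without 1 mouse each) and of Cpa3 with Tpsb2 (0.797 to 0.892) kept their sign and call under the alternatives run. Mcpt4 with Cma1, whose r over 12 mice was 0.09, gave 0.914 without M10_2 and M13_1, -0.0746 on CPM without a log, -0.0412 without M18_b and M2_A, and -0.0214 to 0.399 without 1 mouse each. Mcpt1 with Cma1 gave 0.663 without M10_2 and M13_1, -0.0485 without a log and 0.04 to 0.33 without 1 mouse each. With Myh11, Cma1 gave 0.015 without M10_2 and M13_1 and -0.53 to -0.20 without 1 mouse each, and Mcpt1 gave -0.016 without a log, -0.046 without M10_2 and M13_1, -0.098 without M18_b and M2_A and -0.21 to 0.14 without 1 mouse each. The standard error was 0.94 for Mcpt1 on 2177 counts and 0.44 for Tpsb2 on 524 counts, and Tpsab1, Fcer1a and Ms4a2 held too few counts for the main test.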

Other observations

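Of the neighbours of the chymase genes outside the 9 genes, Cma2 and Mcpt9 had their highest counts in the same mice as Mcpt1. Cma2, between Cma1 and Mcpt1 on chromosome 14, had 28 counts in M18_b, 22 in M2_A and at most 10 in any other mouse. Mcpt9, between Mcpt1 and Mcpt2, had 29 counts in M18_b, 21 in M2_A and at most 17 in any other mouse. Neither was high in M13_1, where Cma1 had 302 counts and Cma2 and Mcpt9 had 2 and 0. In M10_2, where Cma1 had 294 counts, Cma2 had 2 and Mcpt9 had 17. Mcpt8, the basophil protease beyond Mcpt4, had no count in M18_b and its highest count, 8, in M8_2.

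Mrgprb2, a receptor of connective tissue mast cells for basic peptides and drugs, had 25 counts over the 6 APC Min/+ mice and 4 over the 6 WT mice. Its level was 0.0101 to 0.0663 CPM in APC Min/+ and 0 to 0.0209 CPM in WT mice, so the ranges overlapped, and every WT mouse was under the floor of 3 counts. It did not pass the filter on low counts, and the fit without the filter gave an adjusted p of 0.725 (edgeR). Mrgprb1, of the same list of mediators and receptors, went the other way. It had 12 counts over the APC Min/+ mice and 32 over the WT mice, and it did not pass the filter either. Hdc, which makes histamine, was at 0.564 ± 0.213 CPM in APC Min/+ and 0.389 ± 0.109 CPM in WT mice (SD, n = 6 each). M18_b, the mouse with the most Mcpt1, had the lowest Hdc of the 12 mice at 0.245 CPM.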
